A study of Canis lupus familiaris with 51 samples.

Results

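The BCL2 and IAP (inhibitor of apoptosis protein) families were followed across 51 canine cutaneous mast cell tumors (MCTs) by way of 10 genes: BCL2, BCL2L1, MCL1, BCL2A1, BAX, BAK1, BCL2L11, BIRC5, XIAP and BIRC3. Every probe whose gene name on the array was 1 of these symbols was taken, which gave 16 of 43603 probes and 10 of 11530 named genes. The choice was by name, from the families' membership, but with earlier results of these data known. Other genes of both families were not among the 10. RNA from the central part of each tumor was hybridized to its own Agilent canine array with a single dye. The 18 reference samples were 13 differentiated MCTs of low histological grade and 5 undifferentiated MCTs of high grade, and the other 33 tumors, the unknown samples, comprised 26 classified as differentiated and 7 as undifferentiated. All were spontaneous tumors of dogs of various breeds, aged 3 to 13 years in the differentiated and 5 to 13 years in the undifferentiated reference samples, and 4 to 13 and 6 to 14 years in the unknown samples where an age was given. The reference samples held 5 males and 8 females among the differentiated and 3 and 2 among the undifferentiated tumors. Where sex was given, the unknown samples held 7 and 18 among the differentiated and 4 and 2 among the undifferentiated tumors.

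BCL2-family proteins control the mitochondrial route to apoptosis. BCL2, BCL2L1 (BCL-XL), MCL1 and BCL2A1 (A1) hold the effectors BAX and BAK1 in check, and BH3-only proteins such as BCL2L11 (BIM) relieve that restraint, after which BAX or BAK1 opens the outer mitochondrial membrane and cytochrome c activates caspases. XIAP binds and inhibits caspases, BIRC3 (cIAP2) is a ubiquitin ligase of TNF receptor signaling, and BIRC5 (survivin) is best known as a subunit of the chromosomal passenger complex of dividing cells. Mast cells depend on KIT signaling for survival, and withdrawal of that signal is known to raise BIM.

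The sequences of 4 probes are shown because the values described for BIRC5, BIRC3, XIAP and BCL2L11 rest on what these probes bind. Positions are those of the array's annotation, which names no dog genome build, and no letters are marked.
BIRC5: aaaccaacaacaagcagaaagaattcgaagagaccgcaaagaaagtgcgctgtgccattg
BIRC3: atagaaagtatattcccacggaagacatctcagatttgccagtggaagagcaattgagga
XIAP: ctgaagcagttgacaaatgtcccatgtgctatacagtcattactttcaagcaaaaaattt
BCL2L11: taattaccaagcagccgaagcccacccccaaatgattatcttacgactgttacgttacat
The BIRC5 probe lies at chr9:5927668-5927727 on the minus strand. The BIRC3 probe spans chr5:32334061-32334235 on the minus strand, so that its 60 bases are placed over a longer genomic stretch. The XIAP probe lies at chrX:98419998-98420057 and the BCL2L11 probe at chr17:38774182-38774241, both on the plus strand. Each of these 4 sequences has at least 1 forward reading frame without a stop codon. Exon and UTR annotation of the probes was not used here.

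Levels below are log2 intensities after quantile normalization and can be compared between tumors for the same probe, not between probes. Of the 10 genes, 6 had 2 probes and 4 had 1. Where a gene had 2, the probe with the higher mean stood for the gene, and the other is named as the other probe. The scanner software placed 13 of the 16 probes well above background on all 51 arrays, and the other probes of BCL2, BCL2L1 and BIRC3 on 5, 29 and 17 arrays. In all, 22 member values were missing because their spots were flagged as outliers.

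Between 59.4% and 74.8% of the spots of an array were well above background, and no 2 arrays held identical values. The arrays came from 15 slides scanned in 9 sessions, of which 2 slides and 4 sessions held both reference classes. The number of arrays limits the precision, and the SDs and p-values measure the spread between tumors. The mast cell markers KIT, MS4A2, FCER1A, CMA1 and HPGDS had a mean level between 13.13 and 16.25 in every tumor. Between the reference classes 0 of these 5 was called, with 3 higher and 2 lower in undifferentiated tumors. In the unknown samples all 5 were lower in undifferentiated tumors (median log2 difference -0.532). The same held over all tumors (median -0.478), with 0 called in either comparison. The part of these markers in the class differences of the members was not tested. In tissue of this kind, fewer cells of a type and less RNA per cell cannot be told apart. The reference samples had been chosen by histological grade and mitotic index, so genes of cell division were not independent of that choice. The classes of the unknown samples had been predicted by the study from transcripts on these same arrays, none of which was a member. The paper describes most of these transcripts as genes of mitosis and the cell cycle or of DNA repair. Genes of cell division were thus not independent of the predicted classes either.

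Class differences are given as undifferentiated minus differentiated on the log2 scale, from limma fitted over all probes. Called means a Benjamini-Hochberg adjusted p below 0.01 together with a change of 2-fold or more. In the reference samples, BIRC5 was the only member called, 5.25-fold higher in undifferentiated MCTs, and it was 1 of 16 member probes against 1.8% of the 43580 probes tested. At an adjusted p under 0.05 without a fold limit, 3 of the 16 probes passed against 7.55% of all probes, and these 3, for BIRC5, BIRC3 and the other probe of XIAP, were all higher. The median difference of the 16 probes was 0.38, with 12 higher and 4 lower, beside 0.03 over all probes tested. No member of the BCL2 family passed either threshold in the limma comparisons over the reference, the unknown or all samples with no block and every sample included, whereas BCL2, BCL2L1, MCL1 and BAK1 had an adjusted p under 0.05 in some alternatives, which are given with each gene.

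**Figure D1:**
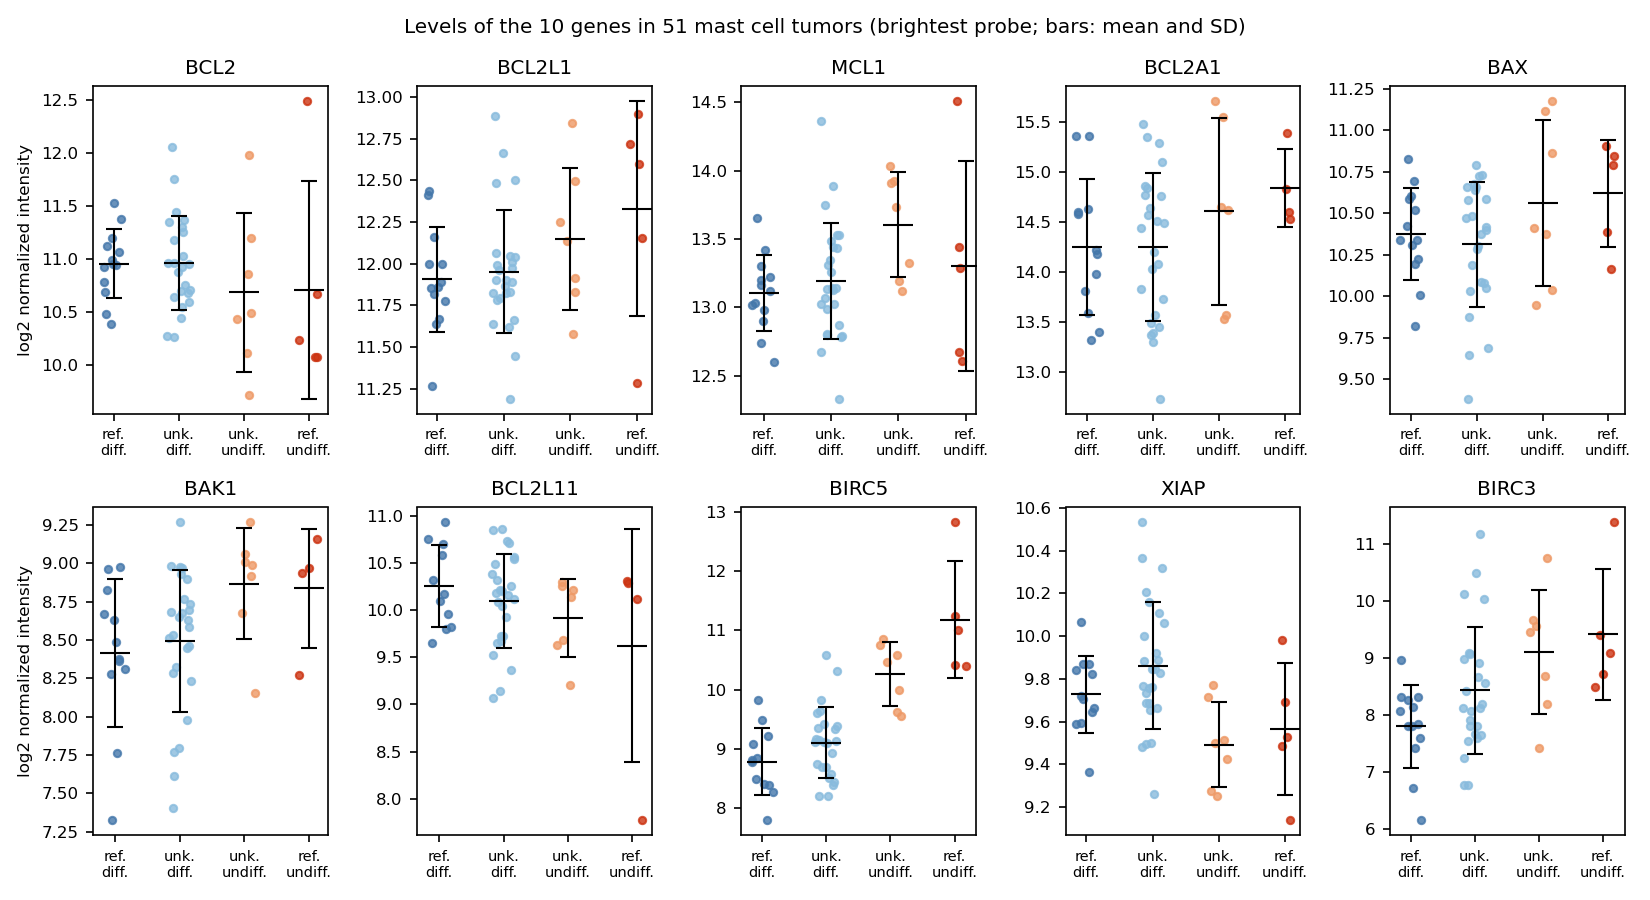
Log2 normalized intensity of the 10 genes in the 51 tumors, brightest probe, with each point a tumor and bars the mean and SD of the reference differentiated, unknown differentiated, unknown undifferentiated and reference undifferentiated tumors (each panel has its own scale, which does not start at 0). The 5 reference undifferentiated tumors lie between 10.40 and 12.82 for BIRC5, above all reference differentiated tumors, and the groups overlap for the members of the BCL2 family.

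**Figure D2:**
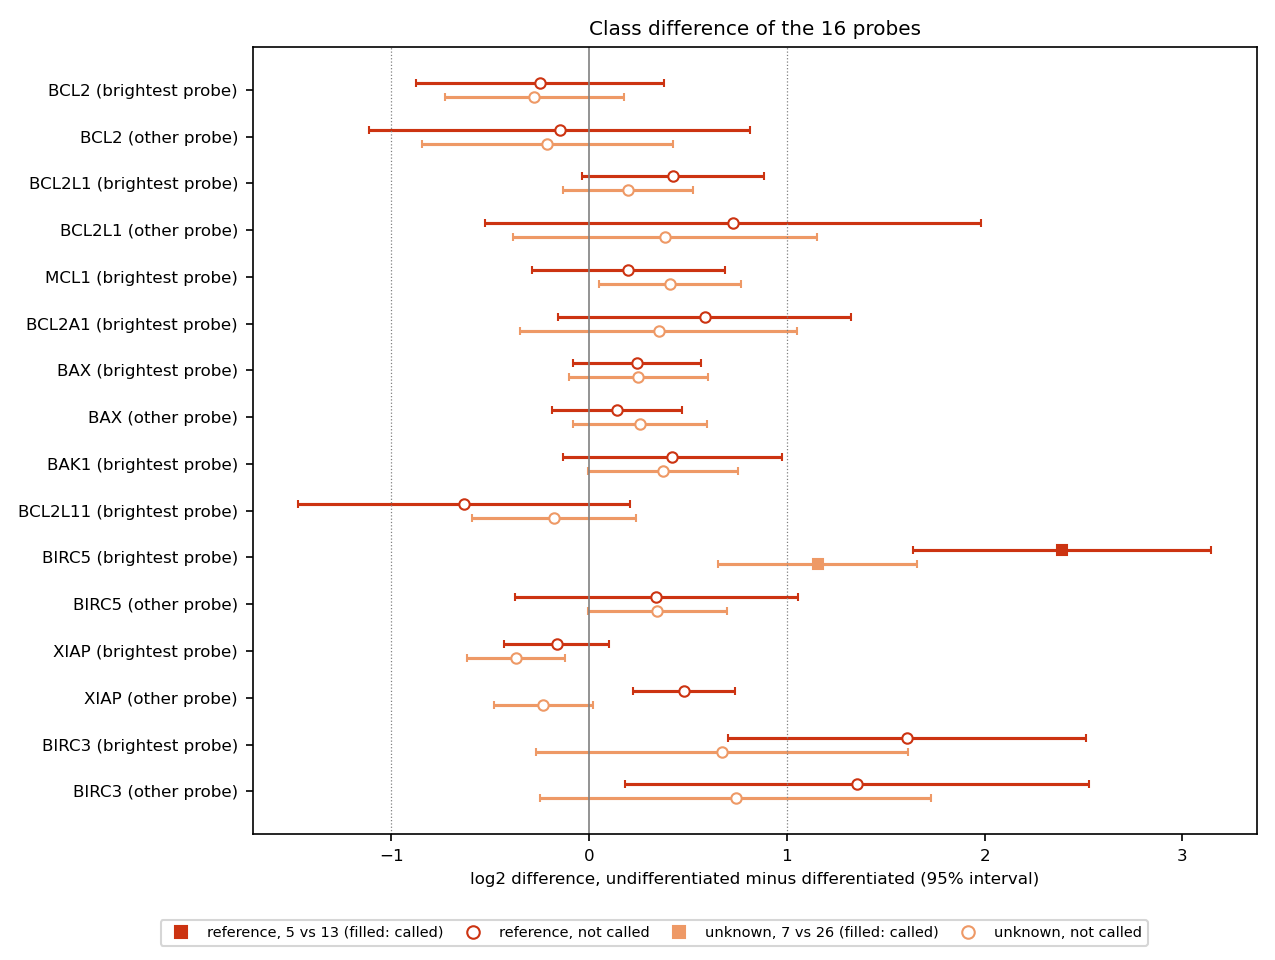
Log2 difference, undifferentiated minus differentiated, with its 95% interval from limma for the 16 probes in the reference samples (5 against 13) and the unknown samples (7 against 26); filled squares are called and dotted lines mark 2-fold. The brightest BIRC5 probe is called in both sets, at 2.39 and 1.16, and the other BIRC5 probe in neither.

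Among the anti-apoptotic members, BCL2, the founding member of the family, measured 12.49 in T9, 10.07 in T57, 10.07 in T73, 10.23 in T90 and 10.67 in LM0, the 5 undifferentiated reference samples. The 13 differentiated ones ran from 10.39 to 11.53 with a median of 10.95. T9 was thus above all of them and 3 of the other 4 below all of them. The difference was -0.25 ± 0.30 (SE; limma adjusted p = 0.664), and leaving out T9 moved it to -0.70 (adjusted p = 0.03, under 0.05 but short of 2-fold) and leaving out T73 to -0.09 (adjusted p = 0.895). The 7 unknown undifferentiated samples were just as spread, from 9.71 in T49 to 11.98 in T77 with a median of 10.48, against 10.26 to 12.06 with a median of 10.93 in the differentiated ones (difference -0.28, limma adjusted p = 0.571). The other BCL2 probe was not well above background on most arrays and is not interpreted.

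BCL2L1, which encodes BCL-XL, measured 12.15 in T9, 12.90 in T57, 12.60 in T73, 12.72 in T90 and 11.28 in LM0, against 11.26 to 12.43 with a median of 11.86 in the 13 differentiated reference samples. T57, T73 and T90 lay above all 13, while LM0 lay at their lower end, and only T57 lay above all differentiated tumors once the unknown samples were included. The difference was 0.43 (95% interval -0.03 to 0.88, limma adjusted p = 0.255) and ranged from 0.28 without T57 (adjusted p = 0.464) to 0.69 without LM0 (adjusted p = 0.0352). With scan session as a fixed block it was 0.79 (limma adjusted p = 0.0359). LM0 was tied to its class by elimination, as the remaining sample name, which makes the value without LM0 depend on that match. Over all 51 tumors the difference was 0.29 (adjusted p = 0.137), and 0.37 without LM0 (adjusted p = 0.0422). The other BCL2L1 probe gave 0.73 with an interval of -0.53 to 1.98, and -0.07 without T57.

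MCL1, a short-lived survival protein of many blood cell lineages, had its highest level of all 51 tumors in T57, at 14.51. The other undifferentiated reference samples measured 13.44 in T9, 13.28 in T73, 12.61 in T90 and 12.67 in LM0, within the range of 12.60 to 13.65 of the differentiated ones. The difference was 0.20 (limma adjusted p = 0.656), and without T57 it was -0.10. Among the unknown samples the 7 undifferentiated tumors ran from 13.12 to 14.03 with a median of 13.74, and the 26 differentiated from 12.33 to 14.36 with a median of 13.14. That difference of 0.41 did not pass (95% interval 0.05 to 0.77, limma adjusted p = 0.183). Over all 51 tumors it was 0.31 (limma adjusted p = 0.137), and 0.44 with arrays scaled to their 75th percentile (adjusted p = 0.0288).

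BCL2A1, an NF-kappaB target expressed in hematopoietic cells, measured 14.53 in T9, 14.83 in T73, 15.39 in T90 and 14.60 in LM0, with T57 missing. T90 lay above the 12 differentiated reference samples, which ran from 13.32 to 15.36 with a median of 14.20, and the other 3 lay above that median. The groups overlapped (difference 0.59, 95% interval -0.16 to 1.33, limma adjusted p = 0.334). The unknown samples gave a difference of 0.35 (limma adjusted p = 0.657), and their undifferentiated tumors spread from 13.53 to 15.71.

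Of the pro-apoptotic effectors, BAX measured 10.90 in T9, 10.79 in T57, 10.84 in T73, 10.39 in T90 and 10.17 in LM0, against 9.82 to 10.83 with a median of 10.34 in the differentiated reference samples. The classes overlapped, and the difference was 0.24 by limma in the reference samples (adjusted p = 0.367) and 0.25 in the unknown samples (adjusted p = 0.486). The other BAX probe followed it closely over the tumors (Pearson r = 0.928) and differed by 0.14 in the reference samples. BAK1 measured 8.27 in T9, 8.94 in T57, 9.16 in T73 and 8.97 in LM0, with T90 missing, against 7.33 to 8.98 in the differentiated ones. The difference was 0.42 in the reference samples (limma adjusted p = 0.353) and 0.39 over all tumors (adjusted p = 0.0763, and 0.0168 to 0.0377 with scan session or slide as a block). Within scan sessions 9 of the 11 undifferentiated tumors with a value were above the mean of the differentiated tumors of their session.

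BCL2L11, the BH3-only protein BIM, measured 7.77 in T9, 10.12 in T57, 10.31 in T73 and 10.29 in T90, with LM0 missing. The 11 differentiated reference samples with a value ran from 9.66 to 10.93 with a median of 10.17. Only T9 was outside that range, at the lowest BCL2L11 level of the 48 tumors with a value. The difference of -0.63 (limma adjusted p = 0.360) was -0.01 without T9 (adjusted p = 0.988). T9 therefore combined the highest BCL2 and the lowest BCL2L11 level of all the tumors with a value. The unknown samples differed by -0.18 (95% interval -0.59 to 0.24, limma adjusted p = 0.714).

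**Figure D3:**
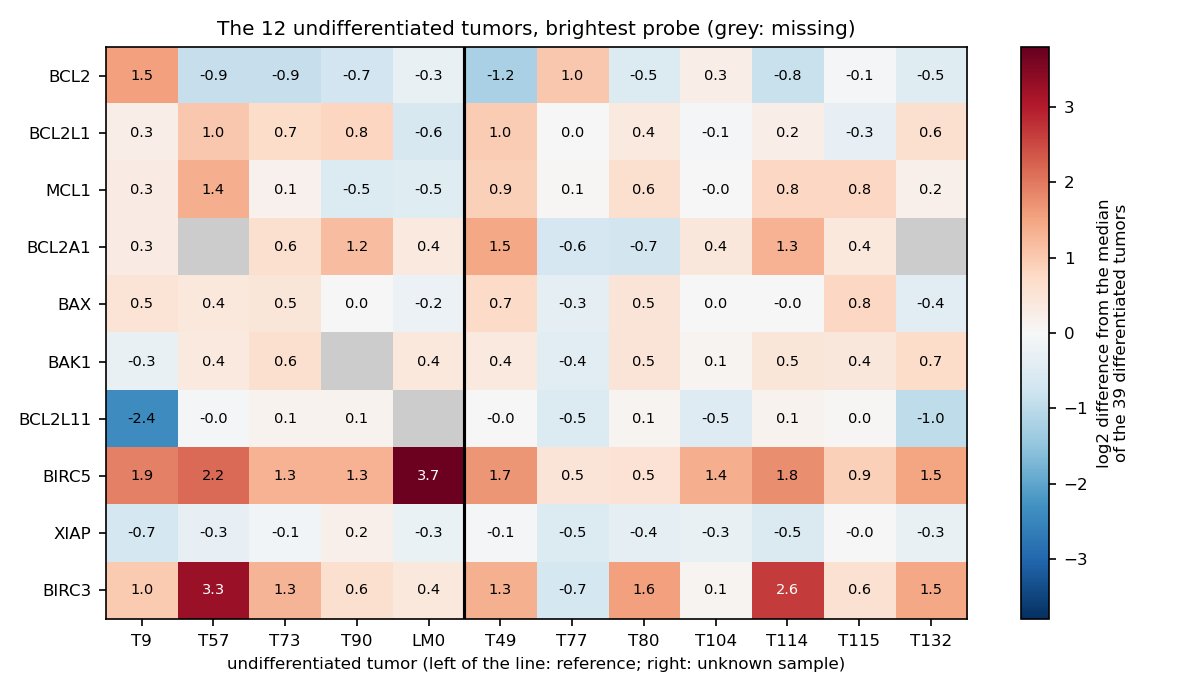
Difference of each of the 12 undifferentiated tumors from the median of the 39 differentiated tumors, in log2 units by color and number, for the brightest probe of each gene (grey: missing; the line separates reference from unknown samples). BIRC5 is above that median in all 12 columns, by 0.48 to 3.74, whereas T9 stands alone for BCL2L11 at -2.39.

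BIRC5 was higher in undifferentiated MCTs in both sets of samples, though, as a gene of dividing cells, it was not independent of how either set was classed. It measured 11.01 in T9, 11.24 in T57, 10.42 in T73, 10.40 in T90 and 12.82 in LM0, against 7.80 to 9.82 with a median of 8.79 in the 12 differentiated reference samples with a value. All 5 lay above all 12. The difference was 2.39 ± 0.36 (SE; limma adjusted p = 0.000802, 95% interval 1.64 to 3.15). It was called without each of the 18 samples in turn, between 1.98 without LM0 and 2.58 without T90.

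In the unknown samples BIRC5 measured 9.56 to 10.86 with a median of 10.46 in the 7 undifferentiated tumors and 8.20 to 10.58 with a median of 9.12 in the 25 differentiated ones with a value. T49, T114 and T132 lay above all differentiated tumors and the other 4 among them. The difference was 1.16 ± 0.25 (SE; limma adjusted p = 0.00421), 2.23-fold, and BIRC5 was the only member called there, 1 of 16 probes beside 0.956% of the 43601 tested. Over all 51 tumors it was 1.64 (limma adjusted p = 2.28e-07), again the only 1 of the 16, beside 2.33% of 43602 probes. The call in the unknown samples was lost without T49, T104, T114 or T132, at differences of 1.06 to 1.12 and adjusted p of 0.0108 to 0.025.

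The class difference of BIRC5 was 1.24 ± 0.42 (SE) larger in the reference than in the unknown samples, which did not pass over all probes (limma interaction, adjusted p = 0.202). 0 of the 16 member probes passed this interaction, in which 0.00459% of 43579 probes were called and 0.062% had an adjusted p under 0.05; at an unadjusted p under 0.05 it was 2 of 16, BIRC5 and the other XIAP probe, against 13.5% of all probes. In order of mean level, reference undifferentiated tumors (11.18 ± 0.99, SD, n = 5) came before unknown undifferentiated (10.26 ± 0.53, n = 7), unknown differentiated (9.11 ± 0.60, n = 25) and reference differentiated ones (8.79 ± 0.56, n = 12). The ranges of neighbors in this order overlapped throughout, and of the neighboring pairs only the classes of the unknown samples were tested, with the call given above. Within scan sessions, BIRC5 was above the mean of the differentiated tumors in 12 of 12 undifferentiated tumors, by 0.73 to 4.12 with a median of 1.60. The 4.12 was that of LM0, whose session held only 1 differentiated tumor, and the next was 2.09 in T9. Undifferentiated tumors of the same session were set against the same mean. With slide as a fixed block, the reference difference was 2.11 and no longer called (limma adjusted p = 0.106).

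The other probe named BIRC5 did not show this pattern. It measured 6.30 in T9, 8.76 in T57, 6.34 in T73, 5.99 in T90 and 5.48 in LM0, against 5.81 to 6.59 in the differentiated reference samples. LM0, with the highest level on the brightest probe, was thus the lowest of the 51 tumors here. The difference was 0.34 (limma adjusted p = 0.592) and -0.21 without T57, and the probes correlated weakly over the tumors (Pearson r = 0.212, Spearman rho = 0.084). The array annotation gives this probe no position, and its transcript record was not matched in the RefSeq gene table, whereas that of the brightest probe was. Records of the brightest probes of BCL2L1, BCL2A1, BCL2L11 and XIAP were not matched either, though these probes have positions.

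**Figure D4:**
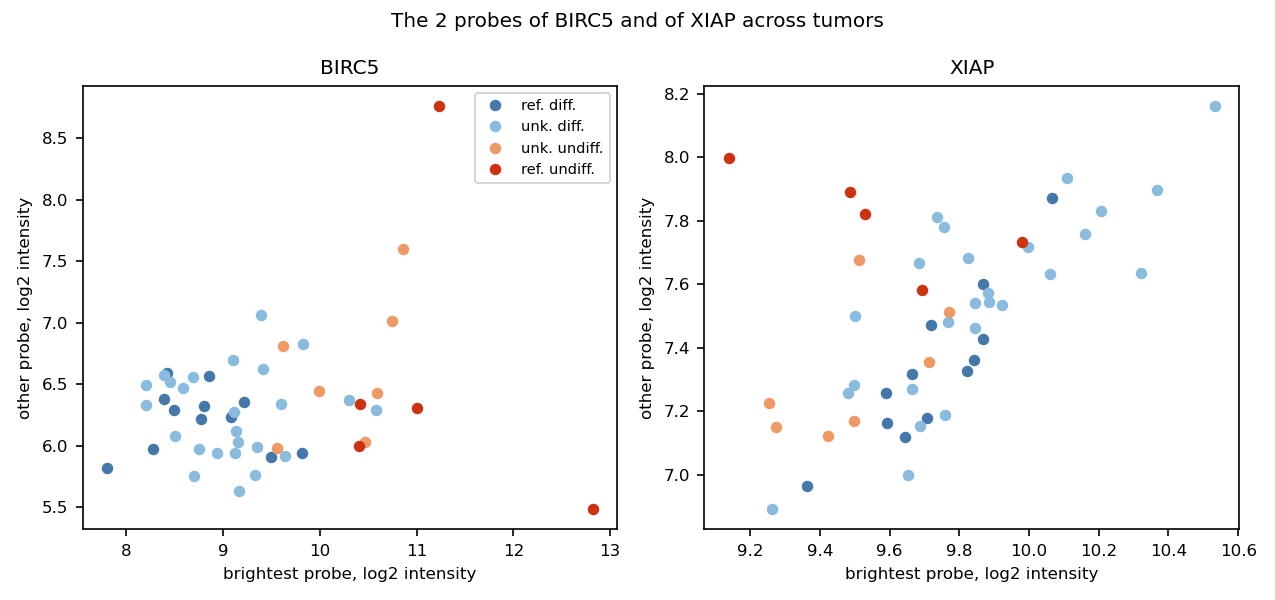
Log2 intensity of the other probe against that of the brightest probe for BIRC5 and XIAP, with each point a tumor, colored by group (axes do not start at 0). For BIRC5 the 5 tumors farthest to the right scatter between 5.48 and 8.76 on the vertical axis, and for XIAP T9, T57 and LM0 stand to the upper left of the other tumors.

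XIAP, the caspase inhibitor, gave opposite signs with its probes in the reference samples, although they lie side by side, the other at chrX:98420084-98420143. On the brightest probe the undifferentiated samples measured 9.14 in T9, 9.49 in T57, 9.69 in T73, 9.98 in T90 and 9.53 in LM0, against 9.36 to 10.06 with a median of 9.71 in the differentiated ones. On the other probe they measured 8.00, 7.89, 7.58, 7.73 and 7.82 in the same order, against 6.96 to 7.87 with a median of 7.32. The groups overlapped on both.

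The difference was -0.16 on the brightest probe (limma adjusted p = 0.463) and 0.48 on the other (adjusted p = 0.0230, or 0.0614 without T9). Both gave lower values in undifferentiated unknown samples, at differences of -0.37 (95% interval -0.62 to -0.12, limma adjusted p = 0.0693, or 0.0497 without T115) and -0.23 (adjusted p = 0.317), neither past the threshold. Over all 51 tumors the brightest probe was lower at an adjusted p under 0.05, though short of 2-fold (difference -0.30, limma adjusted p = 0.0175, against 14.1% of all probes in either direction), and 10 of 12 undifferentiated tumors were below the mean of the differentiated tumors of their scan session. The other probe gave 0.05 over all tumors (adjusted p = 0.841). Within a tumor, the other probe minus the brightest was -2.53 to -2.19 in 12 differentiated reference samples and -1.14, -1.59, -2.11, -2.25 and -1.71 in T9, T57, T73, T90 and LM0, so that 4 of the 5 were outside the range of those 12. The unknown differentiated tumors ran from -2.69 to -1.92, which took in T73 as well as T90. The unknown undifferentiated ones ran from -2.36 to -1.84.

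BIRC3, the ubiquitin ligase cIAP2, measured 9.08 in T9, 11.37 in T57, 9.40 in T73, 8.71 in T90 and 8.49 in LM0, against 6.16 to 8.96 with a median of 7.85 in the 13 differentiated reference samples. T9, T57 and T73 lay above all 13, and T57 alone above all differentiated tumors once the unknown samples were included. The difference was 1.61 ± 0.43 (SE), 3.05-fold, with a limma adjusted p of 0.0296 that was not under 0.01. It was 1.12 without T57 (adjusted p = 0.0617) and 1.61 without T73 (adjusted p = 0.0519).

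Across the unknown samples BIRC3 ran from 7.43 to 10.75 with a median of 9.45 in the 7 undifferentiated tumors and from 6.76 to 11.17 with a median of 8.13 in the differentiated ones. The undifferentiated tumors lay within the range of the differentiated ones, and the difference of 0.67 did not pass (limma adjusted p = 0.482, against 5.53% of all probes under 0.05). Over all 51 tumors it was 1.02 (limma adjusted p = 0.0344). The other BIRC3 probe followed the brightest (Pearson r = 0.872) and gave 1.36 in the reference samples (adjusted p = 0.150). T57 and T114, the highest undifferentiated tumors of the reference and unknown samples for BIRC3, were also the highest of their groups for the mean of 5 neutrophil markers, at 13.61 and 13.59 in ranges of 7.57 to 13.61 and 9.12 to 13.59. That list ran from 6.91 to 10.74 in the differentiated reference samples, 1 of its 5 genes (CXCR2, a chemokine receptor, 2.82 log2 higher) was called between the reference classes with a list median of 3.09, and its part in the BIRC3 difference was not tested. Over 38 differentiated tumors, r between BIRC3 and the neutrophil list was 0.276 and rho 0.305 (permutation p = 0.0932 and 0.0632, adjusted p = 0.275).

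Of 38 measured other genes of the apoptosis pathway 0 were called between the reference classes, beside 2.65% of the 11523 named genes tested, and 4 (10.5%) had an adjusted p under 0.05, beside 10.4%. Of 8 measured further BCL2-family genes, 0 were called, and BID, which links death receptors to mitochondria, was higher by 0.49 (limma adjusted p = 0.0423). Their median difference was -0.20, beside 0.03 over all named genes, of which 182 were called higher and 123 lower. Of the 4 measured genes among other IAPs and IAP antagonists 0 were called, with a median of 0.39, and DIABLO, a mitochondrial antagonist of IAPs, was higher by 0.53 (limma adjusted p = 0.027). Neither BID nor DIABLO reached 2-fold.

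Of 15 measured caspases, apoptosome and mitochondrial channel genes 0 were called, with a median of 0.23. The initiator caspase CASP2 was higher by 0.82 (limma adjusted p = 0.000897) and cytochrome c, CYCS, by 0.92 (adjusted p = 0.00849), both short of 2-fold. Of 11 death receptors, ligands and adaptors 0 were called, with a median of -0.06; over all 51 tumors 1 was, the death receptor FAS, higher by 1.10 (limma adjusted p = 0.00843), which in the reference samples was 0.87 (adjusted p = 0.444). Of 3 genes of the chromosomal passenger complex besides BIRC5, 2 were called, the kinase AURKB (1.17 higher, limma adjusted p = 0.00645) and the scaffold INCENP (1.02 higher, adjusted p = 0.000144). In the unknown samples and over all 51 tumors 0 of the 3 were called by limma, and AURKB and INCENP had an adjusted p under 0.05, short of 2-fold (0.67 and 0.89 in the unknown samples, 0.85 and 0.94 over all). The third gene, CDCA8, was higher but had no limma adjusted p under 0.05 in the reference, unknown or all samples. The paper selected CDCA8 as a class marker from these same arrays and reports it higher in undifferentiated MCTs by qPCR. It also reports a positive correlation of its array and qPCR values for CDCA8. The CDCA8 probe used here is 1 of the 3 in the list of the complex. Why the probe used here differed was not tested. Of 3 measured proliferation genes 2 were called, TOP2A, a DNA topoisomerase, 3.37 higher and PCNA, the replication clamp, 1.36 higher.

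Levels of the members were then related to each other over the 39 differentiated tumors, since BIRC5 differed between the classes. Of 45 pairs, 3 passed at an adjusted p under 0.05 by permutation of Pearson r with 100000 resamples, all positive, and 1 of them, BAX with BAK1, held in every planned setting. For BAX and BAK1, Pearson r was 0.744 and Spearman rho 0.672 over 37 tumors (permutation p = 1e-05 for each, the smallest that could be obtained, adjusted p = 0.00045), and r was 0.680 without the 2 farthest tumors and 0.793 with levels centered within scan session. Levels of 3 keratinocyte genes split the differentiated tumors into 19 low (2.72 to 5.54), 19 high (12.65 to 16.50) and 1 between. The median level of this list was 12.65 in differentiated and 3.88 in undifferentiated reference tumors, and 7.45 and 13.99 in the unknown samples. It thus differed between the classes in opposite directions in the 2 sets, though 0 of the 3 genes was called in either. Its part in the class differences of the members was not tested. Within the high tumors r for BAX and BAK1 was 0.794 (permutation adjusted p = 0.00315) and within the low tumors 0.158 (adjusted p = 0.951), and the difference between these was not tested. BCL2L1 with XIAP (r = 0.559, rho = 0.339, permutation p = 0.00036 and 0.0419, adjusted p = 0.0081) was 0.382 without the 2 farthest tumors (adjusted p = 0.214), 0.593 within scan session (adjusted p = 0.00247), and 0.736 in the low (adjusted p = 0.0279) and 0.128 in the high keratinocyte tumors (adjusted p = 0.644). BAK1 with BIRC3 (r = 0.476, rho = 0.546, permutation p = 0.00307 and 0.00069, adjusted p = 0.046) was 0.363 without them (adjusted p = 0.233).

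Members were also related to marker lists of cell types and of cell division, each taken as the mean standardized level of its genes. Of 130 relations 13 passed, and 8 of them also passed on Spearman rho and in every planned setting, 3 of which were with the keratinocyte list. The other 5 were BIRC3 with T cells, BIRC3 and BAK1 with eosinophils, BAX with macrophages and BCL2A1 with mast cells. BIRC3 followed the T cell list, at r = 0.706 and rho = 0.709 over 38 tumors (permutation p = 1e-05 for each, adjusted p = 0.0013), with r = 0.630 without the 2 farthest tumors, 0.701 within scan session, 0.754 in the low and 0.730 in the high keratinocyte tumors. The mean log2 level of the T cell genes ranged from 6.25 to 8.23 in differentiated and 5.65 to 8.28 in undifferentiated reference tumors, and 0 of its 7 genes was called between them. BIRC3 also followed the eosinophil list of 2 genes (r = 0.627, rho = 0.536, permutation p = 5e-05 and 0.00084, adjusted p = 0.00325; r = 0.606 without the 2 farthest tumors), at 0.340 in the low and 0.744 in the high keratinocyte tumors (permutation adjusted p = 0.534 and 0.0357). BAK1 did too (r = 0.563, rho = 0.477, permutation p = 0.00024 and 0.00284, adjusted p = 0.00464; r = 0.591 without the 2 farthest tumors), at -0.00493 in the low and 0.550 in the high keratinocyte tumors (permutation adjusted p = 0.996 and 0.146).

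BCL2A1 followed the mast cell list (r = 0.460, rho = 0.529, permutation p = 0.00452 and 0.00078, adjusted p = 0.0452; r = 0.519 without the 2 farthest tumors), and BAX the macrophage list (r = 0.565, rho = 0.49, permutation p = 0.00021 and 0.00184, adjusted p = 0.00464; r = 0.463 without them). Within the low and high keratinocyte tumors r was 0.238 and 0.673 for BCL2A1 and 0.311 and 0.546 for BAX, with permutation adjusted p of 0.0767 or more. MCL1 ran against the mast cell list (r = -0.530, rho = -0.477, permutation adjusted p = 0.00579), but not past the limit without the 2 farthest tumors (r = -0.369, adjusted p = 0.17). For MCL1 r was -0.759 in the low and -0.468 in the high keratinocyte tumors (permutation adjusted p = 0.0341 and 0.287). BAK1 followed the mast cell list (r = 0.482, permutation adjusted p = 0.0235), but did not pass with 75th percentile scaling (r = 0.374, adjusted p = 0.121). XIAP ran against the fibroblast list (r = -0.560, rho = -0.423, permutation p = 0.00025 and 0.00843, adjusted p = 0.00464; r = -0.469 without the 2 farthest tumors), though not on Spearman rho after adjustment (adjusted p = 0.0645), as did BCL2L1 (r = -0.576, rho = -0.509, permutation p = 0.00015 and 0.00127, adjusted p = 0.00464; r = -0.446 without them, adjusted p = 0.0585, and -0.658 within scan session, adjusted p = 0.00026). All 6 fibroblast genes were lower in undifferentiated reference tumors (median -0.92), 1 of them called. In the unknown samples 5 were higher and 1 lower (median 0.26), with 0 called. The part of this list in the class differences of the members was not tested. For BIRC5, neither the chromosomal passenger complex list (r = 0.367, rho = 0.510, permutation p = 0.0258 and 0.00149, adjusted p = 0.124) nor the proliferation list (r = 0.323, rho = 0.425, permutation p = 0.0514 and 0.00925, adjusted p = 0.186) passed on Pearson r. On Spearman rho the former passed (permutation adjusted p = 0.0242), and within scan session the latter did (r = 0.440, adjusted p = 0.0416). In the low and high keratinocyte tumors r was 0.720 and 0.074 for the proliferation list (permutation adjusted p = 0.0341 and 0.907) and 0.642 and 0.151 for the complex (adjusted p = 0.0886 and 0.767), and the differences between these were not tested. For the keratinocyte list no pooled value is given, and within its low and high tumors r was -0.0107 and -0.607 for BAX, -0.146 and -0.404 for BAK1 and 0.0408 and -0.172 for BIRC3, with permutation adjusted p of 0.115 or more.

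**Figure D5:**
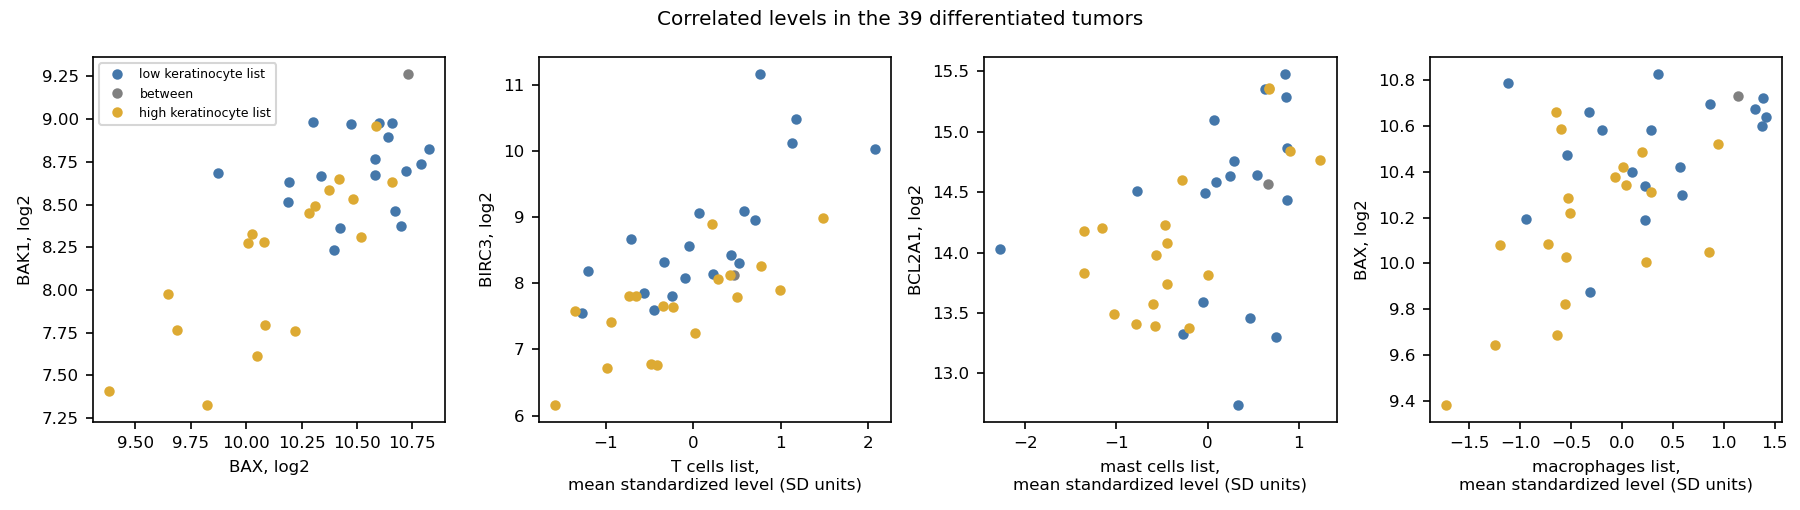
Log2 levels in the differentiated tumors of BAK1 against BAX, BIRC3 against the T cell list, BCL2A1 against the mast cell list and BAX against the macrophage list (lists as mean standardized levels of 7, 5 and 7 genes, in SD units), with each point a tumor, colored by its keratinocyte list level (axes do not start at 0). All 4 relations rise, with r of 0.744, 0.706, 0.460 and 0.565, and in the panel of BAK1 the lowest tumors are those with a high keratinocyte level.

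The genes whose levels were most like those of a member were ranked by Pearson r over the 39 differentiated tumors among 9710 genes, as a description without a test. For BIRC5 these were CENPA (0.833), SHCBP1 (0.756) and DLGAP5 (0.753), of which CENPA is the centromeric histone H3 variant. For MCL1 they were TRIB1 (0.808), NFIL3 (0.746) and ATF3 (0.727), and both NFIL3 and ATF3 are bZIP transcription factors. For BIRC3 they were SFXN1 (0.822), SNX10 (0.766) and GBP1 (0.765), the last an interferon-induced GTPase. For BCL2L11 they were DKKL1 (0.965), GATD1 (0.917) and FOXC2 (0.905), the highest values of any member. The closest gene was RAB8A for BAK1 (0.847), UBXN2B for XIAP (0.794), MAF1 for BAX (0.756), COP1 for BCL2A1 (0.749), PDPK1 for BCL2L1 (0.640) and DKK2 for BCL2 (0.631).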

How the data were processed

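Total RNA of 51 tumors was amplified, labeled with Cy3 and hybridized by the authors, who extracted the scans with Agilent Feature Extraction. The deposited value used is the processed signal of each spot, an intensity that the authors' software background-subtracted and detrended within each array but did not normalize between arrays. A table of intensities that the authors normalized over the arrays served as an alternative.

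Processed signals were log2-transformed and quantile-normalized over the 51 arrays, with control spots removed, outlier-flagged spots treated as missing and repeated spots of a probe averaged (43603 probes). Classes were compared with limma 3.58.1 in R 4.3.3 (with statmod 1.5.0), in the 18 reference samples, the 33 unknown samples and all 51, with an interaction term for the difference between the sets. Benjamini-Hochberg adjustment was over all probes. The steps were tested on simulated data. Quantile normalization gives all arrays the same distribution, so that a change shared by most transcripts would not be seen, and background subtraction makes dim probes imprecise.

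Tumor classes were the study's, tied to arrays through the tumor case names of the labels, with LM0 matched by elimination. The members and the lists of pathways and cell types were chosen with earlier results of these data known, and support no claim of independence. Named genes were all members, genes of pathway lists called in the reference comparison or, up to 3 a list, with the largest change, the 3 genes most like each member, and genes that a result turns on. A list's level was the mean log2 level of its genes (brightest probe), with a missing gene taken at the mean deviation of the others, and correlations used each gene standardized over the differentiated tumors.

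Alternatives were scaling to the 75th percentile, normexp background correction (offset 50), the authors' table, leaving out dim probes (well above background on under 5 arrays), keeping flagged spots, slide or scan session as a block, sex or age as a covariate, an unpaired t-test with and without adjustment (the study used SAM, a permutation-based two-class test, which was not rebuilt), another call rule and leaving out samples. Correlations within tumors of low or high keratinocyte list level were added after seeing the data. The comparisons by grade and survival were not analysed here.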

Additional observations from a re-analysis of the deposited data

Results flagged for a closer look

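The levels of each probe were tested in the undifferentiated reference and unknown samples, with 4 to 7 values each. In 3 of these 32 sets, the highest or lowest tumor stood apart by Dixon's ratio (its gap to the nearest tumor over the range of the group). Chance flags about 1 in 20 independent sets, but these 32 share the same tumors. All 3 were among the undifferentiated reference samples. BCL2 was highest in T9, at 12.49 against 10.67 in the next tumor (ratio 0.753). BCL2L11 was lowest in T9, at 7.77 against 10.12 in the next of 4 tumors (ratio 0.925). The other BIRC5 probe was highest in T57, at 8.76 against 6.34 (ratio 0.739).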

How the results depend on the processing

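No paired analysis was possible because the groups share no replicate numbers. The single member called in the reference samples became 3 at an adjusted p under 0.05 without a fold limit, 2 with an unpaired t-test at an unadjusted p under 0.01 (BIRC3 added; 1 with Benjamini-Hochberg adjustment) and 0 with slide as a fixed block, and stayed 1 (lowest and highest) without each sample. Over all tumors it became 3 at an adjusted p under 0.05. In the unknown samples it became 0 with slide as a fixed block (BIRC5 1.33, adjusted p = 0.023), sex (1.14, adjusted p = 0.0134) or age (1.04, adjusted p = 0.0273) as a covariate, and 0 to 1 without each undifferentiated sample, all by limma. In the interaction 0 members were called under each setting run. Of the 3 correlated pairs 1 was left without the 2 farthest tumors, 1 in the low and 1 in the high keratinocyte tumors, and the 13 list relations were 26 with levels centered within scan session, 4 in the low and 2 in the high ones.

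Signs turned for MCL1 in the reference samples (-0.34 with slide as a fixed block, -0.10 without T57, up to 0.37 without T90) and for XIAP (0.19 with slide as a fixed block, 0.48 on the other probe). In the interaction they turned for BAX (0.049 with the 75th percentile, 0.018 in the authors' table, 0.020 with flagged spots kept), BAK1 (-0.026 with the 75th percentile) and BCL2 (-0.020 with normexp, -0.015 in the authors' table, -0.012 with flagged spots kept). The causes were not tested. Over all probes, the 783 calls of the reference comparison were 404 with normexp, 300 with session and 58 with slide as a fixed block and 1992 with the unadjusted and 605 with the adjusted t-test, the 417 of the unknown samples 205, 149 and 72 with those 3 and 240 with age, and the 1017 of all tumors 423 with normexp. At an adjusted p under 0.05 they were 3292, 2410 and 6150. Leaving out LM0 left 520 calls in the reference comparison, and T114 204 in the unknown samples. Dim probes, the other ones of BCL2, BCL2L1 and BIRC3, limit what can be said of those genes' second measurements.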
